A study of Mus musculus with 14 samples.

Results

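RNA recovered with a Flag antibody from HU-treated mouse embryonic stem cells was compared with RNA recovered with control IgG. The comparison was defined by the sample labels: the 2 HU Flag libraries against the 2 IgG libraries, which are 4 of the 14 libraries of the series. All 4 came from a stem cell line made in the laboratory with the genotype 3Flag-Dppa5a overexpression, so the IgG cells carried the tagged protein too. The HU Flag libraries were made with the Flag antibody (Enogene, E12-001-3) after a treatment labelled HU. The IgG libraries were made with IgG (Millipore, CS200621) from untreated cells. Antibody and treatment therefore differ together, and their effects cannot be told apart in this comparison. Another pair of libraries, Flag antibody on untreated cells, was set beside it: HU Flag against untreated Flag differs in the treatment alone. What HU stands for, its dose and its time are not given in the labels. No IgG library from HU-treated cells and no input RNA of these cells was analysed here, so more RNA in the cell and more RNA on the bait cannot be told apart. The bait was overexpressed, and the labels do not say whether the 2 libraries of a group came from separate cultures or whether the line is 1 clone. The p-values below thus measure the spread between these libraries, which may be technical.

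In RNA immunoprecipitation (RIP), an antibody pulls down a protein with the RNA bound to it, and the recovered RNA is sequenced. Control IgG measures the RNA that sticks to beads and antibody alone. Dppa5a is a small protein of pluripotent cells with a KH domain, a fold that binds single-stranded RNA. The submitters set out to find its target RNAs with and without HU. Among the transcripts followed here are targets of p53, the transcription factor that responds to DNA damage. Replication-dependent histone mRNAs were followed as well, which are made in S phase, end in a stem-loop in place of a poly(A) tail and are degraded when DNA synthesis stops.

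The libraries held 3472020 and 3703236 counts with IgG, 9641507 and 7378729 with HU Flag, and 13033886 and 9469168 with untreated Flag. Most counts fell on a few structural RNAs. Rn45s, the precursor of the ribosomal RNAs, took 47.9% and 39.3% of the counts with IgG and 69.4% and 66.9% with HU Flag. Rmrp, the RNA of RNase MRP, took 28.2% and 35.6% with IgG and 12.9% and 15.6% with HU Flag. At this depth the exact binomial 95% intervals of these shares were at most 0.105 percentage points wide, for counting error only. Outside Rn45s, Rmrp, Lars2 and Rpph1, 702016 and 841305 counts remained with IgG and 1038048 and 816592 with HU Flag. On the scale used below, CPM (counts scaled to a common effective library size by TMM), Rn45s was 3.02-fold higher with HU Flag than with IgG (log2 fold change 1.60, SE 0.11, adjusted p = 5.5e-07, edgeR). Counts assigned to Lars2, which codes for the mitochondrial leucyl-tRNA synthetase, were 4.73-fold higher (log2 fold change 2.24, SE 0.19, adjusted p = 4.5e-06, edgeR). They stood at 22120 and 12460 CPM with IgG and 88070 and 75510 CPM with HU Flag. Eef1a1, a translation factor gene, had 1031 and 866.1 CPM and 905.5 and 1195 CPM. In mESC total RNA, Lars2 was at 72.0 and 257.8 FPKM and Eef1a1 at 5140 and 5773 FPKM. Whether the Lars2 counts came from its mRNA was not tested. Rmrp differed by -0.20 on the log2 scale (adjusted p = 0.345, edgeR), though its share of counts was lower with HU Flag. These values depend on the scaling. Over the alternative settings the log2 fold change ranged from 0.64 to 1.78 for Rn45s and from 1.30 to 2.65 for Lars2. Embryonic stem cell markers were present in all 6 libraries, for instance Pou5f1 at 148 and 133.6 CPM with IgG and 144.6 and 155.3 CPM with HU Flag.

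**Figure D1:**
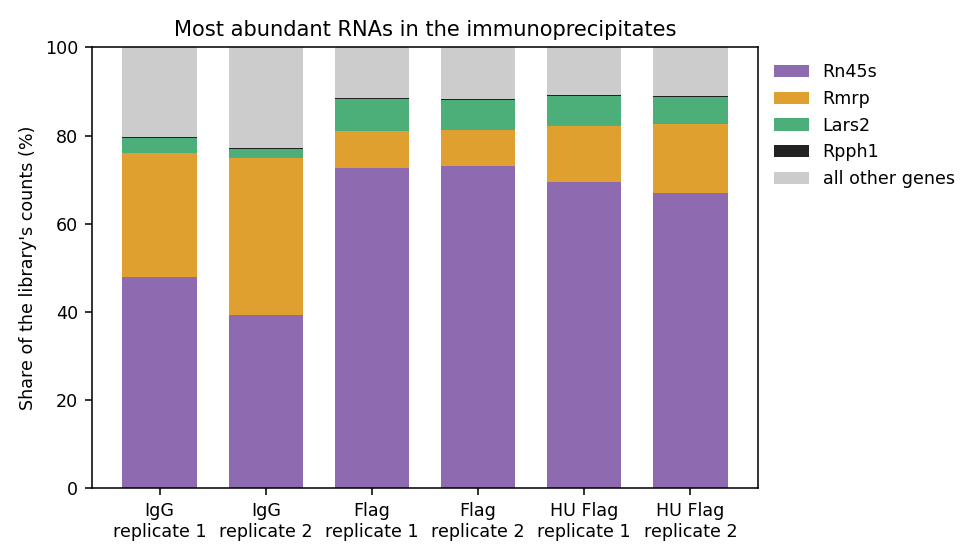
Share of each library's counts (%, vertical axis) that fell on Rn45s, Rmrp, Lars2, Rpph1 and all other genes, in the 6 RIP libraries. Rn45s takes 39.3% to 47.9% with IgG and 66.9% to 69.4% with HU Flag, while Rmrp takes the larger share with IgG.

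Of 9199 genes tested, 142 were recovered more with HU Flag than with IgG and 141 less, at an adjusted p under 0.05 in edgeR. That is 3.08% of all genes tested, 1.54% higher and 1.53% lower. The median log2 fold change over all tested genes was 0.04, and its size among the 283 called genes had a median of 2.1. In every called gene the 2 HU Flag values lay outside the range of the 2 IgG values, as they did in 4418 of all 9199. These counts rest on both IgG libraries: without IgG replicate 1, 28 genes were called, and without IgG replicate 2, 47. With scaling by library size alone in place of TMM, the median of all genes moved to -0.92 and 2777 genes were called, of which 2.63% were higher. All gene-level differences below are relative to the bulk of genes under TMM. The same fit called 60 genes between HU Flag and untreated Flag, 0.652% of those tested, 13 higher (0.141%) and 47 lower (0.511%). HU Flag is in both comparisons, so the values of one are set beside those of the other and no overlap is read from them.

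**Figure D2:**
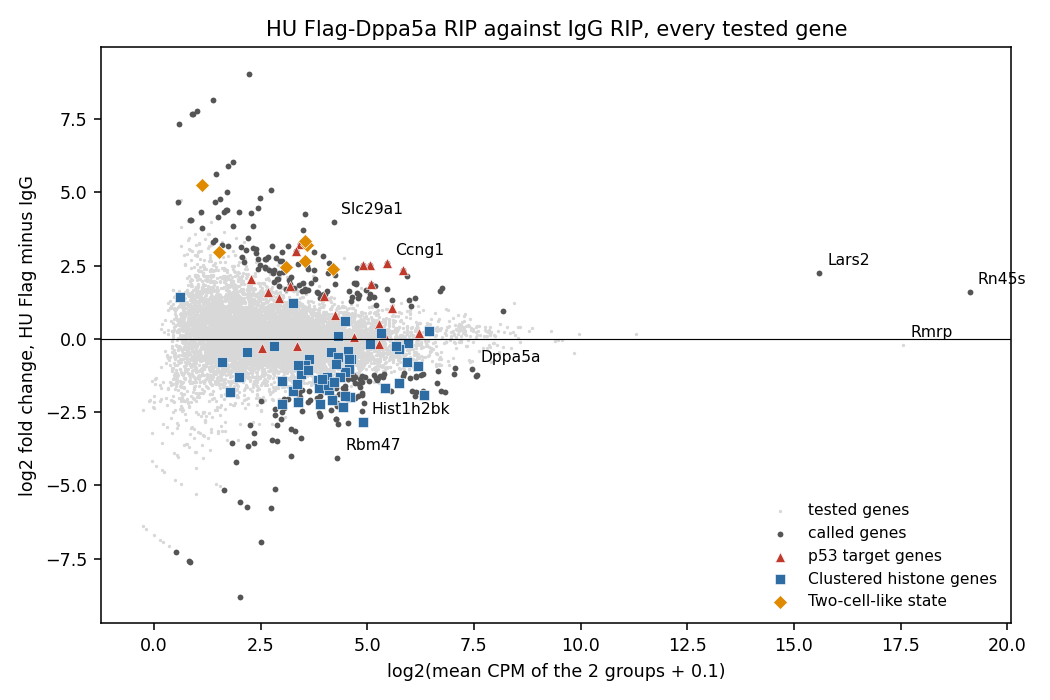
log2 fold change of HU Flag against IgG (vertical axis) by mean level of the 2 groups (horizontal axis, log2 of mean CPM + 0.1) for the 9199 tested genes, with called genes dark and 3 gene lists coloured. Most p53 targets and all 7 tested genes of the two-cell-like state lie above 0, and 47 of the 53 clustered histone genes lie below it.

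Part of the p53 target transcripts were recovered more with HU Flag than with IgG. Of 21 tested genes on the list of p53 targets, 7 were higher and 0 lower, against 1.54% and 1.53% of all genes, and the list's median log2 fold change was 1.47 against 0.04 over all genes. Ccng1, a cyclin G gene induced by p53, showed 15.8 and 9.20 CPM with IgG, 19.4 and 16.0 CPM with untreated Flag, and 84.3 and 66.6 CPM with HU Flag. Both HU values were thus above the 4 others, and HU Flag was 6.05-fold above IgG (log2 fold change 2.60, SE 0.34, adjusted p = 0.000815). Trp53inp1, a pro-apoptotic and autophagy-linked p53 target, was at 18.0 and 19.6 CPM with IgG, 18.1 and 28.0 CPM with untreated Flag, and 113.1 and 78.4 CPM with HU Flag. Btg2, an antiproliferative gene, gave 8.90 and 10.7 CPM with IgG, 8.80 and 15.8 CPM with untreated Flag, and 44.0 and 69.2 CPM with HU Flag. In these genes the IgG and untreated Flag values lay close to each other, and only the HU Flag pair stood apart.

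Windows around the transcription start are shown for Ccng1 and, further on, for the histone gene Hist1h2bk, because the 2 lists they belong to moved in opposite directions. The window of Ccng1 (RefSeq, GRCm38.p6, chr11:40755237-40755536, minus strand) runs 5′ to 3′ from 250 bases before to 50 bases after the start.
Ccng1: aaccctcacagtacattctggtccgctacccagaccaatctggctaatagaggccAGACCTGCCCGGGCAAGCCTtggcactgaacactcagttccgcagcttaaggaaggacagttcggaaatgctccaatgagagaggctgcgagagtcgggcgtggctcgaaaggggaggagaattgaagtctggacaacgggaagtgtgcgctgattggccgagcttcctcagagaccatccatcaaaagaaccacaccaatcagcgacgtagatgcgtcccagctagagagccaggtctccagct
Capitals mark a match to the 20-base p53 response element, a pair of adjacent decamers, with 1 mismatch allowed. The match starts 195 bases before the transcription start, and since the element is its own reverse complement it reads alike on both strands. Of 27025 genes with a window, 29 held such a match (0.107%). Among the 16 tested p53 targets with a window it was found in 3, Ccng1, Cdkn1a and Rps27l. Of the 7 called targets, 5 had a window and 1 of them, Ccng1, held the match. A match is a description of the letters, and binding of p53 was not measured.

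The direct comparison of HU Flag with untreated Flag gave the p53 targets the same sign. There 5 of 21 were higher and 0 lower, with a list median of 1.28 against 0.002 over all genes. Ccng1 differed by 2.09 (SE 0.33, adjusted p = 0.00273), Trp53inp1 by 2.06 (SE 0.32, adjusted p = 0.00246) and Btg2 by 2.21 (SE 0.37, adjusted p = 0.00393) on the log2 scale. Pmaip1, which codes for the BH3-only protein Noxa, followed another pattern. It was at 8.51 and 9.04 CPM with IgG, 21.4 and 39.1 CPM with untreated Flag, and 46.5 and 54.1 CPM with HU Flag. HU Flag exceeded IgG by 2.52 (adjusted p = 0.00142), while its difference from untreated Flag was 0.74 (adjusted p = 1).

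The remaining called targets were Eda2r, Phlda3 and Mdm2, which fall outside the naming rule and were chosen after their values were seen. Mdm2, the ubiquitin ligase that degrades p53, gave 12.3 and 16.9 CPM with IgG, 15.6 and 18.8 CPM with untreated Flag, and 47.9 and 59.4 CPM with HU Flag. Phlda3, an Akt inhibitor, gave 1.58 and 2.79 CPM with IgG, 3.29 and 3.16 CPM with untreated Flag, and 19.6 and 16.0 CPM with HU Flag. Eda2r, a receptor of the TNF family, differed from IgG by 3.23 (adjusted p = 0.0025) and from untreated Flag by 1.61 (adjusted p = 0.265). Mdm2 and Phlda3 passed against untreated Flag as well, at adjusted p of 0.0154 and 0.0136. Cdkn1a, the Cdk inhibitor p21, missed the threshold in both comparisons. Its values were 9.50 and 7.23 CPM with IgG, 1.84 and 7.83 CPM with untreated Flag, and 27.5 and 18.8 CPM with HU Flag, a difference of 1.47 from IgG (adjusted p = 0.131) and of 2.28 from untreated Flag (adjusted p = 0.0592). Not every listed target moved: Sesn2, a stress-induced sestrin, differed from IgG by -0.19 (adjusted p = 0.813), with 45.7 and 37.0 CPM with IgG against 43.8 and 28.5 CPM with HU Flag.

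Outside the list, Ddit4l, an inhibitor of mTOR signalling chosen after its values were seen, had 0 counts in both IgG libraries. It was at 0.290 and 1.14 CPM with untreated Flag and 8.85 and 9.65 CPM with HU Flag, at least 17.0-fold higher than IgG when each IgG library is set to a floor of 3 counts. Of the 7 called p53 targets, only Ccng1 kept its call whichever library was left out. It was the 1 called member without IgG replicate 1, while Btg2, Trp53inp1, Pmaip1, Mdm2, Phlda3 and Eda2r had adjusted p between 0.0744 and 0.165. Without IgG replicate 2, 4 were called and Btg2, Pmaip1 and Mdm2 were not, at 0.0506 to 0.0709. Leaving out either HU Flag library left 7 called. Under library size alone the list median was 0.51, with 6 members higher and 3 lower. Without untreated Flag replicate 1, 1 member was called against untreated Flag.

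Part of the clustered histone genes moved the other way. Of 68 genes on the list 53 were tested, and 19 were lower with HU Flag than with IgG and 0 higher, against 1.53% and 1.54% of all genes. The list's median log2 fold change was -1.13. Summed over the list, the level was 1705 and 1585 CPM with IgG, 4816 and 2794 CPM with untreated Flag, and 945.7 and 835.6 CPM with HU Flag. The HU Flag libraries were thus the lowest and the untreated Flag libraries the highest. Against untreated Flag, 46 of 53 were lower and 0 higher, where 0.511% of all genes were lower, and the median was -2.16. Of the 47 genes lower in that test, 46 were clustered histone genes. The other was H2afx (chosen after its values were seen), the gene of the variant histone H2A.X, at 159.3 and 60.1 CPM with untreated Flag and 39.3 and 23.1 CPM with HU Flag (log2 fold change -1.81, adjusted p = 0.037). Without untreated Flag replicate 1 it differed by -0.95 (adjusted p = 1), and without HU Flag replicate 2 its adjusted p was 0.164.

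Hist1h2bk, which codes for a histone H2B, had the largest decrease of the list against IgG. Its start window (RefSeq symbol H2bc12, GRCm38.p6, chr13:22035571-22035870, plus strand) is printed on the same scale, 5′ to 3′.
Hist1h2bk: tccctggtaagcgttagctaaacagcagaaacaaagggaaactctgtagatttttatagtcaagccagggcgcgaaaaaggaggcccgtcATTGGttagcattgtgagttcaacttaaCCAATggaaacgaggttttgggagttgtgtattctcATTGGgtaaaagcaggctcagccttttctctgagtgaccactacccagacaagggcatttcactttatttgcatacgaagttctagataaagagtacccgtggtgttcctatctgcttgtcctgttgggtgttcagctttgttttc
Capitals mark CCAAT on either strand, the letters bound by the factor NF-Y, which occur 3 times between 160 and 96 bases before the start. CCAAT was found in 42 of 49 tested histone genes with a window (85.7%) and in 41.1% of all genes with a window. All 18 of the called histone genes with a window held it.

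Hist1h2bk was at 44.1 and 60.6 CPM with IgG, 87.5 and 59.9 CPM with untreated Flag, and 5.09 and 9.82 CPM with HU Flag, 7.08-fold lower than IgG (log2 fold change -2.82, SE 0.37, adjusted p = 0.000815). Hist1h2bc, another H2B gene, was at 33.4 and 37.8 CPM with IgG, 68.2 and 44.4 CPM with untreated Flag, and 7.24 and 6.99 CPM with HU Flag. Hist1h1b, which codes for a linker histone H1, was at 107.8 and 143.9 CPM with IgG, 315.6 and 146.2 CPM with untreated Flag, and 35.8 and 31.3 CPM with HU Flag. In each of these genes the HU Flag pair lay below all 4 other libraries. Hist1h2bb differed from IgG by -2.1 and Hist1h1b by -1.91 (adjusted p = 0.00284 and 0.0038). Against untreated Flag the differences of Hist1h2bk, Hist1h2bc, Hist1h2bb and Hist1h1b were -3.32, -2.98, -2.96 and -2.78, each with adjusted p = 0.000344.

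The histone genes did not all sit below IgG. For 41 of the 53 the HU Flag libraries lay below the IgG libraries, for 1 above, and for the rest they overlapped. Over all tested genes the HU Flag libraries lay below in 23.7% and above in 24.3%. Hist1h3d, the exception, chosen after its values were seen, had 5.93 and 5.42 CPM with IgG, 70.3 and 37.5 CPM with untreated Flag, and 13.3 and 13.2 CPM with HU Flag. It differed from IgG by 1.22 (adjusted p = 0.0923) and from untreated Flag by -2.03 (adjusted p = 0.00671). Clustered histone genes are near-identical in sequence, so reads may be split between copies and single genes are uncertain. Without IgG replicate 1 or without IgG replicate 2, 3 members were called, and without an HU Flag library, 16 or 15. Under library size alone 46 were lower, with a median of -2.11. Without untreated Flag replicate 1, the count against untreated Flag was 15.

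**Figure D3:**
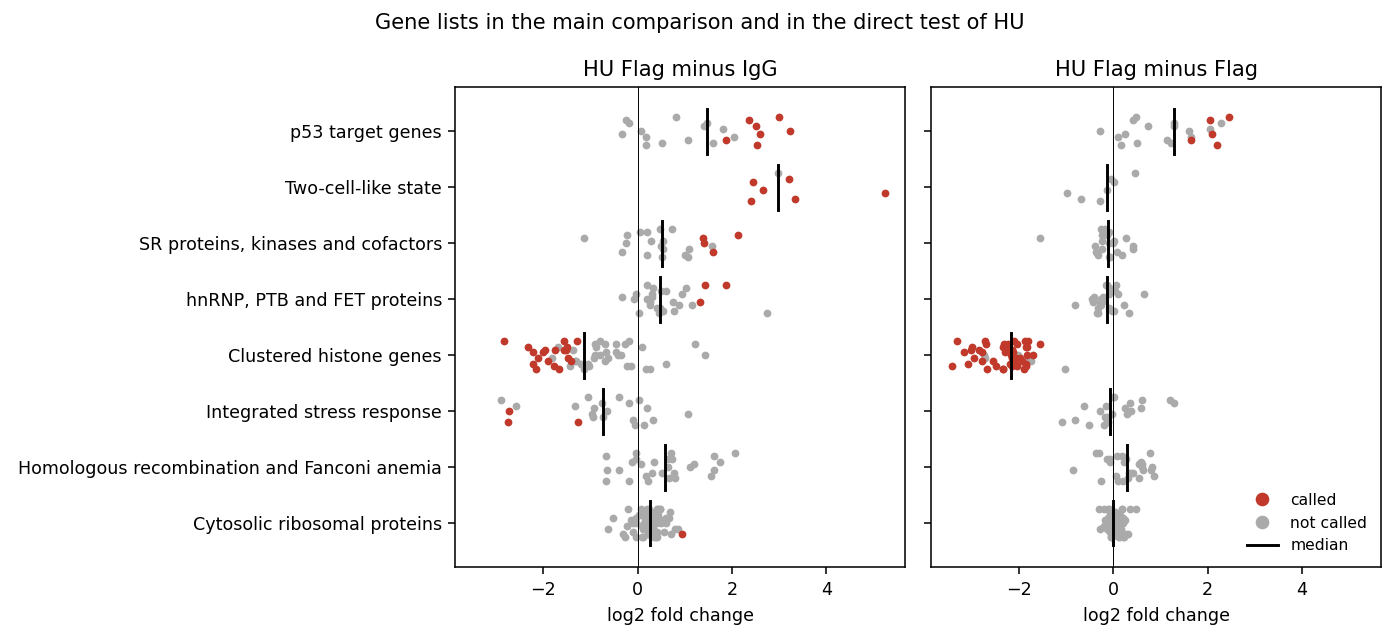
log2 fold change (horizontal axis) of each tested gene of 8 lists, HU Flag against IgG on the left and HU Flag against untreated Flag on the right, with called genes in red and medians as bars. The p53 targets (medians 1.47 and 1.28) and histone genes (-1.13 and -2.16) lie off 0 on both sides, the two-cell-like genes on the left only (2.98 and -0.14); with library size alone, the left medians of the SR, hnRNP, homologous recombination and ribosomal protein lists turn below 0.

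Several of the RNAs with the largest increase over IgG were also high with untreated Flag. Slc29a1, a nucleoside transporter (mm10, chr17:45585200-45599603), showed 2.37 and 1.97 CPM with IgG, 50.1 and 38.6 CPM with untreated Flag, and 33.0 and 36.3 CPM with HU Flag. HU Flag was 15.9-fold above IgG (log2 fold change 3.99, SE 0.38, adjusted p = 2.3e-05) and differed from untreated Flag by -0.36 (adjusted p = 1). Ldhb, a lactate dehydrogenase subunit, gave 2.57 and 0.657 CPM with IgG, 27.8 and 10.1 CPM with untreated Flag, and 21.6 and 20.0 CPM with HU Flag. Dazl, a germ cell RNA-binding protein, gave 0.198 and 1.97 CPM with IgG, 22.0 and 6.06 CPM with untreated Flag, and 34.2 and 10.2 CPM with HU Flag. For all 3 genes every Flag library, treated or not, was above both IgG libraries. Ldhb and Dazl differed from IgG by 3.72 and 4.27 (adjusted p = 0.0025 and 0.00595). Slc29a1 kept its call without any 1 library. Dazl lost it without IgG replicate 1 (adjusted p = 0.165) and Ldhb without IgG replicate 2 (adjusted p = 0.0844).

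Rap2b, a Ras-related small GTPase, was low with untreated Flag, as were the p53 targets Ccng1 and Btg2 described above, with 3.96 and 3.29 CPM with IgG, 4.55 and 6.57 CPM with untreated Flag, and 19.7 and 20.6 CPM with HU Flag. It passed both tests, at 2.48 over IgG (adjusted p = 0.00478) and 1.86 over untreated Flag (adjusted p = 0.0471). The latter call ended whichever of its 4 libraries was left out (adjusted p = 0.113 to 0.824) and with library size alone (0.0912). Slc19a2, a thiamine transporter, gave 4.55 and 3.12 CPM with IgG, 9.77 and 8.59 CPM with untreated Flag, and 30.4 and 23.5 CPM with HU Flag. Its difference of 1.55 from untreated Flag missed the threshold (adjusted p = 0.0921). Cox6b2, a testis-type subunit of cytochrome c oxidase, and Snhg11, a host of small nucleolar RNAs, differed between the HU Flag libraries themselves. Cox6b2 had 10.3 CPM in replicate 1 and 48.3 CPM in replicate 2, and Snhg11 11.4 and 36.0 CPM, against IgG levels of 2.18 and 7.39 CPM and of 2.37 and 3.62 CPM. Without HU Flag replicate 2 neither was called (adjusted p = 0.374 and 0.0863), and without either IgG library neither was called (0.113 to 0.342). The call of Rap2b against IgG also ended without IgG replicate 1 (adjusted p = 0.0973) or 2 (0.1), and that of Slc19a2 without IgG replicate 2 (0.0583).

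The Zscan4 genes of the two-cell-like state, a rare stem cell state that resembles the two-cell embryo, were low with IgG. Of 20 listed genes of that state only 7 passed the filter on low counts, and 6 of these were called higher with HU Flag than with IgG and 0 lower, against 1.54% and 1.53% of all genes. Tmem92, a membrane protein gene, passed the filter through its HU Flag counts, so the count and the median log2 fold change of 2.98 describe the 7 genes and not the list. Zscan4f, a telomere-linked zinc finger gene, was at 1.58 and 2.47 CPM with IgG, 29.0 and 38.0 CPM with untreated Flag, and 10.9 and 31.1 CPM with HU Flag. Zscan4d was at 1.98 and 2.63 CPM with IgG, 15.0 and 29.5 CPM with untreated Flag, and 7.78 and 35.3 CPM with HU Flag. The 2 HU Flag libraries thus differed from each other, though both lay above IgG. Summed over the list, HU Flag held 70.5 and 190.6 CPM and IgG 16.2 and 19.7 CPM, with 128.2 and 186.7 CPM for untreated Flag. The differences from IgG were 3.34 for Zscan4f, 3.20 for Zscan4d and 2.65 for Zscan4c (adjusted p = 0.00194, 0.00865 and 0.00256). Tmem92 had 1 and 0 counts with IgG against 32 and 23 with HU Flag. Against untreated Flag none of the 7 was called by edgeR or DESeq2 or had an unadjusted p under 0.05, and the median was -0.14. The Zscan4 genes are near-identical copies, so the single values are uncertain. None was called without IgG replicate 1, without IgG replicate 2 only Zscan4f (1 of the list), and without HU Flag replicate 2, 3. Of 387 listed zinc finger genes, which include Zscan4, 213 passed the filter on low counts. Of these 213, 11 were higher and 0 lower, where 1.54% of all genes were higher. With library size alone 5 were higher and 42 lower. These counts describe the tested genes and not the list. Zscan10, one of the 11, was at 3.36 and 3.45 CPM with IgG and 15.0 and 14.7 CPM with HU Flag. None of the zinc finger genes was called without IgG replicate 1, without IgG replicate 2, 1, and without HU Flag replicate 2, 5.

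**Figure D4:**
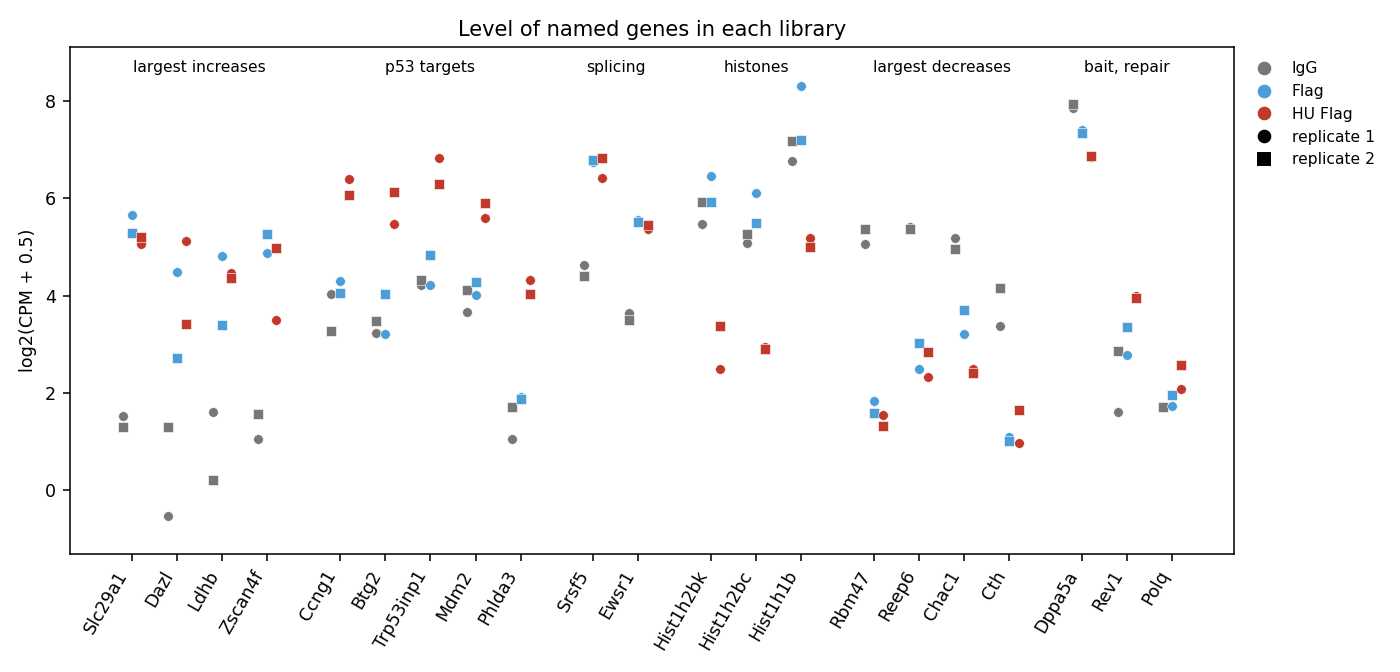
Level of named genes in each of the 6 RIP libraries (vertical axis, log2 of CPM + 0.5), grouped by role, with IgG in grey, untreated Flag in blue and HU Flag in red and 1 symbol per replicate. For Slc29a1, Srsf5 and Rbm47 the red and blue points lie together away from grey, and for Ccng1, Btg2 and Hist1h2bk the red points lie away from both.

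Some messages of splicing regulators were recovered more with HU Flag than with IgG. Of 22 SR proteins, kinases and cofactors, which bind exonic enhancers or modify the proteins that do, 4 were higher and 0 lower. Of 27 hnRNP, PTB and FET genes, a class of nuclear RNA-binding proteins, 3 were higher and 0 lower, where 1.54% of all genes were higher. The list medians were 0.53 and 0.48. With library size alone they turned to -0.45 and -0.49, with 1 SR gene higher and 3 lower, and 1 hnRNP gene higher and 5 lower. Srsf5 was at 24.3 and 20.7 CPM with IgG, 107.5 and 110.2 CPM with untreated Flag, and 85.1 and 112.7 CPM with HU Flag (log2 fold change 2.14, SE 0.28, adjusted p = 0.000815). Ewsr1, a FET family gene, was at 12.1 and 10.8 CPM with IgG, 46.8 and 45.3 CPM with untreated Flag, and 40.8 and 43.3 CPM with HU Flag (1.87, SE 0.31, adjusted p = 0.00284). Both genes were thus high with the Flag antibody whether or not the cells had received HU. The other called members were Srsf2, Srsf7, Tra2a, Hnrnpa2b1 and Hnrnph1, with differences from 1.33 to 1.60. Against untreated Flag none of the 2 lists' members was called by edgeR or DESeq2, and 0 had an unadjusted p under 0.05. Srsf5 kept its call without any 1 library. The other 6 lost theirs without either IgG library (adjusted p between 0.0973 and 0.341), and Srsf2, Srsf7, Tra2a, Hnrnpa2b1 and Hnrnph1 also without HU Flag replicate 1 (0.0513 to 0.246). Core spliceosome genes had 0 of 36 called in edgeR, with 6 at an unadjusted p under 0.05 (17.4% of all genes) and 1 called by DESeq2.

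A few nuclear long noncoding RNAs were among the called genes. Neat1, the scaffold of paraspeckles, was at 22.2 and 10.0 CPM with IgG and 55.4 and 57.4 CPM with HU Flag. Firre, an X-linked nuclear RNA, was at 2.77 and 2.79 CPM with IgG and 9.65 and 19.3 CPM with HU Flag. Rian, an imprinted RNA that hosts small nucleolar RNAs, fell from 21.8 and 13.6 CPM with IgG to 0.268 and 3.83 CPM with HU Flag. With untreated Flag, Neat1 was at 25.5 and 48.4 CPM, Firre at 7.26 and 16.7 CPM and Rian at 0.387 and 3.03 CPM. Of 35 listed noncoding RNAs and hosts, 22 passed the filter on low counts, Rian through its IgG counts. Neat1, Firre and Rian were the 3 called of the 22, where 3.08% of all genes were called. Their log2 fold changes from IgG were 1.82, 2.37 and -3.15 (adjusted p = 0.0173, 0.0212 and 0.0473). None kept its call without IgG replicate 1 (0.0731 to 0.287) or 2 (0.151 to 0.243), Rian lost it without HU Flag replicate 1 (0.0977), with DESeq2 (0.285) and with a stricter filter of 20 counts in 2 libraries (0.0534), and Firre without HU Flag replicate 2 (0.0889).

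The mRNA of the bait was not recovered more. Dppa5a itself (mm10, chr9:78367054-78368199) was at 230.1 and 245 CPM with IgG, 168.7 and 161.9 CPM with untreated Flag, and 114.9 and 116 CPM with HU Flag, 2.06-fold lower with HU Flag than with IgG (log2 fold change -1.04, SE 0.23, adjusted p = 0.0198). The groups did not overlap, with HU Flag lowest. The counts do not separate tagged from endogenous transcripts, and protein was not measured. Ooep, a KH-domain gene of the oocyte that neighbours Dppa5a on the chromosome (mm10, chr9:78376903-78378588), was at 23.1 and 29.4 CPM with IgG and 9.25 and 10.8 CPM with HU Flag (-1.39, adjusted p = 0.0453). They were the 2 tested members of 9 KH-domain embryo genes. Against untreated Flag neither differed at the threshold (both adjusted p = 1). Both calls ended whichever of the 4 libraries was left out, at adjusted p of 0.056 to 0.169 for Dppa5a and 0.0748 to 0.262 for Ooep.

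RNAs recovered more with IgG formed the other group of 141. Rbm47, an RNA-binding protein gene of epithelial cells, was at 32.8 and 41.1 CPM with IgG, 3.10 and 2.53 CPM with untreated Flag, and 2.41 and 2.00 CPM with HU Flag, 16.6-fold lower with HU Flag than with IgG (log2 fold change -4.05, SE 0.42, adjusted p = 6.2e-05). Reep6, a membrane-shaping protein gene of the endoplasmic reticulum, was at 41.7 and 40.6 CPM with IgG, 5.13 and 7.70 CPM with untreated Flag, and 4.56 and 6.66 CPM with HU Flag. Wwc1, which codes for the Hippo pathway protein Kibra, was at 41.9 and 27.6 CPM with IgG, 3.87 and 5.43 CPM with untreated Flag, and 3.08 and 6.16 CPM with HU Flag. In all 3 the IgG libraries stood apart from the 4 Flag libraries, treated or not. Mapt (tau), Cdkl2, Sfmbt2 (a polycomb-related gene), Hbegf (an EGF receptor ligand) and Slc7a7 (an amino acid transporter) differed by -2.74 to -2.44 on the log2 scale. Rbm47 and Reep6 kept their calls without any 1 library. Wwc1 lost its call without IgG replicate 1 (adjusted p = 0.0691), and Mapt, Cdkl2, Sfmbt2, Hbegf and Slc7a7 lost theirs without IgG replicate 2 (0.0575 to 0.194), Slc7a7 also without IgG replicate 1 (0.0973).

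Genes of the integrated stress response, the programme that Atf4 runs when amino acids are short or protein folding fails, were among these. The list holds Atf4 itself and the kinase genes Eif2ak3 and Eif2ak4 beside targets. Of 22 tested, 3 were lower and 0 higher, against 1.53% and 1.54% of all genes, with a list median of -0.74. Chac1, which degrades glutathione, was at 35.8 and 30.7 CPM with IgG, 8.80 and 12.5 CPM with untreated Flag, and 5.09 and 4.83 CPM with HU Flag (log2 fold change -2.74, SE 0.38, adjusted p = 0.00117). Cth, an enzyme of cysteine synthesis, was at 9.89 and 17.3 CPM with IgG, 1.65 and 1.52 CPM with untreated Flag, and 1.48 and 2.66 CPM with HU Flag. Shmt2, the mitochondrial serine hydroxymethyltransferase, was at 61.3 and 53.7 CPM with IgG, 29.9 and 21.6 CPM with untreated Flag, and 29.4 and 18.3 CPM with HU Flag. Pck2, a mitochondrial enzyme of gluconeogenesis among the largest decreases, differed by -2.54 (adjusted p = 0.00432). The 3 list members and Pck2 were low in all Flag libraries, and none was called against untreated Flag. Without IgG replicate 1 or 2 the list had 1 call, Chac1, while Cth and Shmt2 had adjusted p of 0.0684 to 0.252. Cth was also lost without HU Flag replicate 1 (0.0648) and Shmt2 without HU Flag replicate 2 (0.191), and Pck2 lost its call without IgG replicate 2 (0.0928).

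Macrophage markers moved in the same direction as these RNAs. Their sum over 17 genes was 165.4 and 78.2 CPM with IgG, 10.4 and 11.7 CPM with untreated Flag, and 19.3 and 57.8 CPM with HU Flag. Of the 17, 2 and 4 were at 0 with IgG, 9 and 12 with untreated Flag, and 4 and 1 with HU Flag. Among the defining markers, Csf1r had 35 and 12 counts with IgG, Itgam 26 and 16, Ptprc 14 and 8 and Ctss 69 and 33, while Adgre1 and Aif1 were at 0. With HU Flag these 4 had 1 and 3, 2 and 2, 3 and 11, and 11 and 12 counts. Lyz2, a lysozyme of myeloid cells, was the highest of them with IgG and with HU Flag and the second with untreated Flag, with 98.5 and 38.9 CPM with IgG, 3.29 and 4.17 CPM with untreated Flag, and 9.79 and 33.1 CPM with HU Flag. It was listed at 0 to 0.033 FPKM in the total RNA of the mESC and KD_control stem cells. Laptm5, another of the 17, gave 20.8 and 18.1 CPM with IgG, 4.06 and 5.43 CPM with untreated Flag, and 5.09 and 12.7 CPM with HU Flag. In total RNA it was at 34.5 and 26.5 FPKM in mESC and 39.6 and 38.5 FPKM in KD_control, so the sum is not of macrophage RNA alone. Of the 17 markers, 8 passed the filter on low counts. Ptprc, Cd68, Lyz1, Csf1r, Itgam and Ctss passed it through their IgG counts, so their direction is no test. None of the 8 was called against IgG by edgeR. Of the 8, 5 had an unadjusted p under 0.05, as did 17.4% of all genes, and DESeq2 called 1. In edgeR, Lyz2 differed from IgG by -1.69 (adjusted p = 0.0658). It was 2.52 above untreated Flag on the log2 scale (adjusted p = 0.0285, edgeR). That call ended without HU Flag replicate 2 or either untreated Flag library. Fibroblast markers, for the feeder cells on which stem cells are kept, summed to 86.6 and 50.8 CPM with IgG and 30.2 and 76.1 CPM with HU Flag. Most of each sum was Fn1, at 59.0 and 38.8 CPM with IgG and 21.6 and 55.1 CPM with HU Flag. In total RNA Fn1 was at 69.3 and 75.2 FPKM in mESC and 191.9 and 190 FPKM in KD_control. Of the 26 markers, 14 and 16 were at 0 with IgG and 13 and 11 with HU Flag. Only 3 passed the filter on low counts: Fn1, Thbs1 and S100a4, the last through its IgG counts. All 3 were lower with HU Flag than with IgG, 2 at an unadjusted p under 0.05 in edgeR, and none was called by edgeR or DESeq2. Thbs1 had 95 and 38 counts with IgG and 22 and 36 with HU Flag. S100a4 had 25 and 13 counts with IgG and 1 and 2 with HU Flag. Col3a1, Postn, Lum and Dcn had 0 counts in every RIP library. The part of macrophage or feeder RNA in the results was not tested.

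Some pluripotency genes differed. Of 27 tested pluripotency factors 1 was higher and 2 were lower, against 1.54% and 1.53% of all genes. Fbxo15, an F-box gene of stem cells, was at 10.7 and 6.57 CPM with IgG, 74.8 and 52.7 CPM with untreated Flag, and 37.8 and 53.8 CPM with HU Flag (log2 fold change 2.41, adjusted p = 0.00147). Tfcp2l1, a naive pluripotency factor, was at 131.3 and 112.2 CPM with IgG, 41.0 and 38.0 CPM with untreated Flag, and 23.9 and 46.4 CPM with HU Flag (-1.80, adjusted p = 0.00466). Utf1, a chromatin factor of undifferentiated cells, was at 50.1 and 50.3 CPM with IgG and 21.9 and 20.5 CPM with HU Flag (-1.24, adjusted p = 0.0284). Pou5f1, the core factor Oct4, differed by 0.09 (adjusted p = 0.888), a value that turned to -0.87 with library size alone. Of 23 listed genes of primitive endoderm and trophectoderm, only 10 passed the filter on low counts. Of these 10, 3 were higher and 1 was lower, against the same shares of all genes. Lamb1 passed the filter through its HU Flag counts and Eomes through its IgG counts, so the calls describe the 10 genes and not the list. Col4a1 and Lamb1, basement membrane genes, and Tfap2c, a trophectoderm and germline factor, were at 0.657 to 2.96 CPM with IgG and 4.69 to 17.0 CPM with HU Flag. Eomes, a T-box factor, was at 10.5 and 7.56 CPM with IgG and 1.07 and 0.832 CPM with HU Flag. Sox1, a neural factor, was at 1.19 and 3.29 CPM with IgG and 11.1 and 12.2 CPM with HU Flag. Only Fbxo15 of these 8 called genes kept its call without IgG replicate 1, and without IgG replicate 2 only Sox1 (others 0.058 to 0.235). Without HU Flag replicate 1, Tfap2c, Eomes and Utf1 were not called (0.0529 to 0.0615), and without HU Flag replicate 2, Lamb1, Eomes and Utf1 (0.0632 to 0.179).

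Genes of DNA repair and replication gave almost no calls, where 3.08% of all genes were called. At that share a list this small can hold none, so a count of 0 does not set it apart. Rev1, a translesion polymerase that inserts bases opposite damaged DNA, was at 2.57 and 6.74 CPM with IgG, 6.39 and 9.72 CPM with untreated Flag, and 15.4 and 15.0 CPM with HU Flag. The HU Flag values were the highest of the 6, and the difference from IgG was 1.69 (SE 0.49, adjusted p = 0.069), which missed the threshold. It was 1.11 without IgG replicate 1 (adjusted p = 0.398) and 2.53 without IgG replicate 2 (0.1). From untreated Flag it was 0.92 (adjusted p = 1). Polq, the polymerase of microhomology-mediated end joining, was at 2.77 and 2.79 CPM with IgG, 2.81 and 3.41 CPM with untreated Flag, and 3.75 and 5.49 CPM with HU Flag. Its difference from IgG of 0.72 (SE 0.64, adjusted p = 0.614) turned to -0.23 with library size alone, and with 14 to 33 counts per library a change of this size was not detectable. Translesion synthesis had 0 of 19 called, homologous recombination and Fanconi anemia 0 of 28, non-homologous end joining 0 of 10, and replication licensing and replication stress response 0 of 33 in edgeR. In that order 5, 6, 1 and 6 members had an unadjusted p under 0.05, as did 17.4% of all genes, and DESeq2 called 1, 0, 1 and 1. The list of microhomology-mediated end joining had 1 of 13, Hmces, which shields abasic sites in single-stranded DNA, at 27.7 and 28.8 CPM with IgG, 9.58 and 4.17 CPM with untreated Flag, and 9.65 and 4.66 CPM with HU Flag (-1.97, adjusted p = 0.023). That call ended without IgG replicate 1 (0.164), IgG replicate 2 (0.162) or HU Flag replicate 2 (0.0893). Mcm7, a subunit of the replicative helicase, differed by -1.03 (adjusted p = 0.0547).

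In the number of calls, large housekeeping classes stayed near the background share, 3.08% of all genes called. Cytosolic ribosomal proteins had 1 of 79 higher and 0 lower. Without regard to calls, the HU Flag libraries lay above IgG for 46 of the 79 and below for 4, against 24.3% and 23.7% of all genes. The list median was 0.26 and turned below 0 with library size alone. Nuclear oxidative phosphorylation subunits had 1 of 73 higher, Cox6b2, and 1 lower, Sdhd, a succinate dehydrogenase subunit. Of 77 mitochondrial ribosomal proteins 1 was lower, Mrps24. Sdhd and Mrps24 differed by -1.38 and -1.33 (adjusted p = 0.0295 and 0.047), and both calls ended without IgG replicate 1 or 2 (0.148 to 0.265), that of Sdhd without HU Flag replicate 2 (0.128) and that of Mrps24 without either HU Flag library (0.153 and 0.0748). Proteasome subunits (0 of 36), translation factors (0 of 31), polycomb and DNA methylation genes (0 of 22), small nucleolar and Cajal body RNAs (0 of 29) and microRNA precursors (0 of 4) held no call in edgeR. In that order 2, 5, 5, 2 and 2 of their members had an unadjusted p under 0.05, and DESeq2 called 0, 0, 1, 1 and 0. For the 22 polycomb and DNA methylation genes the HU Flag libraries lay below IgG in 11 and above in 0, with a list median of -0.42. Actins (1 of 24), cyclins and Cdk genes (1 of 24), glycolysis (1 of 22), immediate early genes (1 of 11, Btg2) and ribosomal and small structural RNAs (1 of 6, Rn45s) each held 1 call, all higher.

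In the RNA-seq of the mESC libraries of this series, the median level of the 142 RNAs higher with HU Flag was 15.8 FPKM, that of the 141 lower ones 15.0 FPKM, and that of all tested genes 15.6 FPKM. In the KD_control libraries the medians were 16.6, 19.7 and 16.2 FPKM. In the RIP libraries the median of the higher genes was 2.75 CPM with IgG and 14.8 CPM with HU Flag, and that of the lower genes 29.0 CPM with IgG and 7.72 CPM with HU Flag. The rule fixed these differences, so they are given as a description. Of the 142, 84 stayed under 20 CPM with HU Flag. Of all 9199 tested genes, 7331 stayed under 20 CPM in the higher of the 2 groups. Of the 142, 6 had no count in either IgG library. These were all such genes among those tested, and they passed the filter on low counts through HU Flag. Median gene spans in mm10 were 16292 bases for the higher genes, 25700 bases for the lower genes and 22497 bases for all tested genes. In the other comparisons the called genes had, by median, -0.44 (lower genes) and 0.38 (higher genes) for HU Flag minus untreated Flag, and -1.34 and 1.87 for untreated Flag minus IgG, on the log2 scale. These comparisons share libraries with the one that chose the genes, so the medians show only where the values sit.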

How the data were processed

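RIP libraries from mouse stem cells were analysed, 2 each for IgG, untreated Flag and HU Flag. The authors deposited read counts per gene symbol for RIP, as the whole-number values show, and FPKM per gene for RNA-seq, per the file headers. FPKM served only to describe levels in total RNA. Upstream tools, per the submitters' processing notes, included HTSeq 0.6.1, Cuffdiff 2.1.1, Cufflinks 2.1.1, TopHat2 2.0.8 and CASAVA 2.19, on mm10. Their roles are not stated. Trizol extraction and an NEBNext Ultra kit were used, per the labels' protocols. Strand handling is not given in these sources, so reads of antisense or overlapping genes may be mixed.

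Of 24421 symbols, 27 read as dates and were left out (0.0206% to 0.0489% of counts). Tests on the deposited counts were quasi-likelihood F tests (edgeR 4.0.16, R 4.3.3) with TMM over all 6 RIP libraries in 1 fit and filterByExpr (minimum count 10) over the 4 libraries compared. Adjusted p-values are Benjamini-Hochberg values over 9199 genes, called under 0.05. CPM use the effective library size, with TMM factors of 1.46 and 1.64 (IgG), 0.793 and 0.836 (untreated Flag), and 0.774 and 0.814 (HU Flag). DESeq2 1.42.0, other scalings and filters, a 2-fold threshold, a replicate block and leaving out each library were alternatives. Replicates differed by more than sampling noise in each group (chi-square per degree of freedom 5.00 to 9.70). The fit was tested on simulated data. Promoter windows are from RefSeq. Python 3.11.15 and matplotlib 3.10.9 drew the figures.

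The comparison and the 34 gene and marker lists were chosen with earlier results of these data known. Named genes were Dppa5a, Rev1, Polq, the 5 RNAs with the highest level, and per direction the 12 largest changes among called genes of at least 20 CPM without overlap. Gm and Rik symbols, pseudogenes and small RNAs did not qualify. Lists with at least 2 calls gave up to 4 members, others up to 2. A part of these is named.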

Additional observations from a re-analysis of the deposited data

Results flagged for a closer look

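A group of 2 libraries is too small to test for a library that stands apart. The direct test of HU Flag against untreated Flag (edgeR, adjusted p under 0.05) showed where the HU value differed under the same antibody. Among the listed genes, 46 clustered histone genes and 5 p53 targets passed it. The histone genes named differed by -3.32 (Hist1h2bk), -2.98 (Hist1h2bc), -2.96 (Hist1h2bb), -2.78 (Hist1h1b) and -2.03 (Hist1h3d), and the variant histone gene H2afx by -1.81, on the log2 scale. The p53 targets differed by 2.46 (Phlda3), 2.21 (Btg2), 2.09 (Ccng1), 2.06 (Trp53inp1) and 1.64 (Mdm2).

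Of the 13 genes higher in that test, 8 are not on the p53 list, and those not yet described were chosen after their values were seen. Apaf1, the apoptosome scaffold, differed by 2.16, from 3.29 and 3.66 CPM with untreated Flag to 13.4 and 17.8 CPM with HU Flag. Zfp365 differed by 2.56, from 2.03 and 5.56 to 17.0 and 27.3 CPM. Tef, a bZIP transcription factor, differed by 2.13, from 3.00 and 3.79 to 15.2 and 14.7 CPM, and Cep170b by 1.79, from 9.29 and 10.1 to 39.4 and 27.6 CPM. Ddit4l differed by 3.72, Rap2b by 1.86 and Lyz2 by 2.52. Rmrp differed by 0.83 (adjusted p = 0.000409), the smallest of the 13 differences, while it differed from IgG by -0.20. Of the 19 genes named here and called against untreated Flag, 14 lost the call without untreated Flag replicate 1, 9 without replicate 2, and 5 and 8 without HU Flag replicate 1 and 2. Only Ccng1, Hist1h2bk, Hist1h2bc, Hist1h2bb and Hist1h1b kept theirs without untreated Flag replicate 1. There the adjusted p was 0.469 for Apaf1, 0.679 for Zfp365, 0.581 for Tef, 0.238 for Cep170b and 0.0636 for Rmrp, and Tef, Rap2b and Ddit4l lost the call whichever of the 4 libraries was left out.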

How the results depend on the processing

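Against IgG, the 283 calls became 2777 with library size alone, 538 with no filter on low counts, 47 when tested against a 2-fold change, and 553 with a replicate block. Leaving out single libraries gave 28 to 308 calls. Without IgG replicate 1 or 2, which leaves 1 IgG library assumed to vary like the other groups, 28 and 47 were called among 10417 and 10429 genes tested. RLE, TMMwsp, leaving out the 4 most abundant RNAs, DESeq2, a stricter filter and a fit of 4 libraries gave 283 to 421. Against untreated Flag, the 60 calls became 14 against a 2-fold change, and 16 to 67 when a library was left out (16 without untreated Flag replicate 1).

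The labels do not say that equal replicate numbers mark libraries made together. Deviations of same-numbered libraries correlated at -0.015 (IgG and untreated Flag), -0.027 (IgG and HU Flag) and 0.389 (untreated Flag and HU Flag) over genes. The block gave 75 calls against untreated Flag, and ended no call of a named gene.

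Of 62 called genes named, 43 lost the call without IgG replicate 1, 43 without IgG replicate 2, 13 and 14 without an HU Flag library, 35 against a 2-fold change and 13 with library size alone; none turned in sign. Of named genes that were not called, signs turned with library size alone for Polq (-0.23), Rpph1 (-0.76) and Pou5f1 (-0.87), without IgG replicate 2 for Rpph1 (-0.11) and Pou5f1 (-0.0072), and without HU Flag replicate 2 for Sesn2 (0.11). Leaving out single libraries, Rpph1 lay between -0.11 and 0.44, Pou5f1 between -0.0072 and 0.14, and Sesn2 between -0.54 and 0.11. The cause was not tested. With 702016 to 1038048 counts per library outside the 4 most abundant RNAs in these groups, small changes of genes with few counts were not detectable.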
